A study of Mus musculus with 41 samples.

Results

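Cholesterol is built from acetyl-CoA in a long chain of enzyme steps: the mevalonate pathway makes isoprenoid units and joins them into squalene, and a second set of enzymes closes squalene into lanosterol and trims it to cholesterol. Fatty acids are built from the same acetyl-CoA by a shorter chain of enzymes, then lengthened and desaturated. Both chains are under the transcription factors SREBP1 and SREBP2 (genes Srebf1 and Srebf2), which the escort protein Scap carries out of the endoplasmic reticulum when membrane sterol is low and which the Insig proteins hold back when it is high. The liver is a main site of both syntheses, and in the lung alveolar type 2 cells use the products for surfactant.

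The genes described here are 33 named genes of these chains and their control. They were chosen by gene name: 8 enzymes from acetyl-CoA to squalene, 10 from squalene to cholesterol, 6 regulators and sterol carriers, and 9 genes of fatty acid synthesis and desaturation. The choice was made with earlier results of these data known. On the arrays 32 of the 33 had a probe, of 27962 gene names in all; Me1 had none under that name. The 32 genes were covered by 62 probes, and each gene is given by its brightest probe unless stated otherwise.

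RNA was measured in lung and liver of female C57BL/6 mice (C57BL/6BomTac in the study's methods) that inhaled UV-Titan L181 nanoTiO2, a surface-coated nanosized titanium dioxide, at 40 mg/m3 for 1 h per day on 11 consecutive days, and of control mice that breathed filtered air. Tissue was taken 5 days after the last exposure, and the mice had been time-mated but had not conceived; their age is labelled only as an equivalent of gestation day 4. The 28 mRNA arrays were 7 exposed and 6 control lungs and 7 exposed and 8 control livers. Each came from a separate mouse within its tissue, and 12 mouse numbers occurred in both tissues. Every array set the sample (Cy5) against a common reference RNA from 11 mouse cell lines (Cy3), so that each value below is the log2 ratio of sample over reference and a difference of 1 is a doubling.

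Lung arrays carried alveolar type 2 cell markers, with 9 of 9 well above background on every lung array, and liver arrays carried hepatocyte markers, with 8 of 8 on every liver array. Between 55.1% and 70.5% of probes were well above background on an array, and none of the 32 genes had a brightest probe that was saturated or too dim on any array. Outlier spots, as flagged by the scanner, were dropped, so that some values rest on fewer mice; their number is then given. On the slides of both tissues the exposed samples always lay at the first positions and the controls at the last ones. Exposure and position cannot be told apart in either tissue. Adjusted p-values are from limma with Benjamini-Hochberg adjustment over all probes of the comparison.

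In the lung, Cyp51, Fdps, Hmgcs1 and Sc4mol were higher in exposed than in control mice, by 24% to 34%. All of these are enzymes of sterol synthesis. Of the 32 genes, 4 passed an adjusted p of 0.05 upward, where 0.247% of all 27948 genes tested did so, and 0 passed downward. By direction alone 28 of 32 were higher, against 51.3% of all genes, and the median difference of the 32 was 0.25 against 0.00 for all genes. At an unadjusted p under 0.05, 15 were higher and 0 lower, against 4.14% of all genes higher. Because the 32 genes were chosen with earlier results of these data known, the shares of all genes describe and are no independent test.

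Cyp51 encodes lanosterol 14-alpha-demethylase, the first step from lanosterol towards cholesterol. Its lowest, median and highest values were -1.06, -0.93 and -0.84 in 6 exposed lungs, mouse 12 not being measured, and -1.37, -1.33 and -1.25 in 6 control lungs. Every exposed lung lay above every control lung. The difference was 0.39 ± 0.04 (SE), a 1.31-fold rise with an adjusted p of 0.00057. Its 2 other probes gave 0.19 and 0.32 and were not called.

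Fdps makes farnesyl diphosphate, the unit from which squalene is joined. Exposed lungs ranged from -0.84 to -0.38 with a median of -0.69, and control lungs from -1.18 to -0.92 with a median of -1.05. The groups did not overlap here either. The rise was 0.41 ± 0.07 (SE, n = 7 and 6; limma adjusted p = 0.01), or 1.33-fold, and a second probe, measured in 5 exposed and 4 control lungs, gave 0.25.

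Hmgcs1 condenses acetoacetyl-CoA with acetyl-CoA to HMG-CoA at the head of the pathway. It ranged from 0.41 to 0.70 in exposed lungs, median 0.49, and from 0.06 to 0.33 in control lungs, median 0.22, again with no overlap. The rise was 0.31 ± 0.06 (SE; limma adjusted p = 0.03), or 1.24-fold. Its other probes gave 0.20 and 0.04.

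Sc4mol, now named Msmo1, encodes the C4-methyl sterol oxidase that acts after Cyp51. Its values were -0.63, -0.40 and -0.21 (lowest, median, highest) in exposed lungs and -0.97, -0.86 and -0.58 in control lungs. The lowest exposed lung fell below the highest control lung, so that these groups overlapped. The rise was 0.42 ± 0.08 (SE; limma adjusted p = 0.032), or 1.34-fold, from the single probe of this gene.

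The Cyp51 and Fdps calls were kept without any of the 13 lung arrays in turn, with adjusted p at most 0.0026 and 0.036. Hmgcs1 was lost in 8 of 13 omissions (adjusted p 0.051 to 0.084: exposed mouse 1, 12, 13 or 23, or control mouse 24, 27, 32 or 34) and Sc4mol in 10 of 13 (0.061 to 0.089: any of these, exposed mouse 7 or control mouse 29). With every spot in the background model or with median centering in place of loess, 0 of the 32 genes were called, and the 4 differences were still upward, at 0.26 to 0.48 and at 0.41 to 0.54; with 1 value per gene symbol, over all its probes, Fdps (0.38, adjusted p 0.73) and Hmgcs1 (0.19, adjusted p 0.1) were lost.

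**Figure D1:**
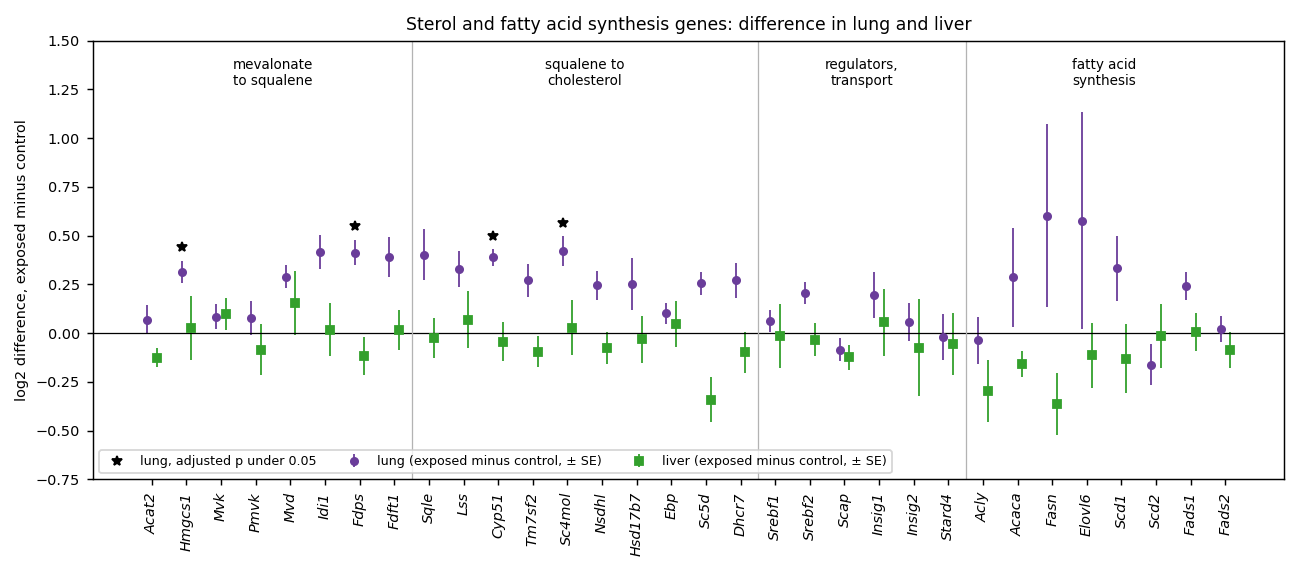
Exposed minus control difference (log2, vertical axis) of each gene, grouped by role; circles are lung and squares liver, bars are ± SE, and stars mark an adjusted p under 0.05 in the lung. Hmgcs1, Fdps, Cyp51 and Sc4mol are starred at 0.31 to 0.42, and Fasn and Elovl6 have the widest lung bars.

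The promoters of these genes are shown because SREBP acts there, together with NF-Y and Sp1. RefSeq sequences of GRCm38.p6 were matched for 26 of the 33 genes and for 3 of the 4 called; Fdps was among the others. Each is the 250 bases upstream of the annotated start, 5′ to 3′ on the gene's strand, at chr5:4104698-4104947 (minus) for Cyp51, chr13:119690101-119690350 (plus) for Hmgcs1 and chr8:64733579-64733828 (minus) for Sc4mol. Capitals mark matches, on either strand, to TCACNCCAC (a sterol regulatory element), CACGTG (an E-box), CCAAT (NF-Y) and GGGCGG (Sp1); none of the matches overlap.
Cyp51: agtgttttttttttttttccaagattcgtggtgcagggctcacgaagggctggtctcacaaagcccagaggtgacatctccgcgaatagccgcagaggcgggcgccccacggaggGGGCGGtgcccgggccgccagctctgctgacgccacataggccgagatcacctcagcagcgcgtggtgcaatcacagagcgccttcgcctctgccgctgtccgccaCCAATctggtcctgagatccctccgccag
Hmgcs1: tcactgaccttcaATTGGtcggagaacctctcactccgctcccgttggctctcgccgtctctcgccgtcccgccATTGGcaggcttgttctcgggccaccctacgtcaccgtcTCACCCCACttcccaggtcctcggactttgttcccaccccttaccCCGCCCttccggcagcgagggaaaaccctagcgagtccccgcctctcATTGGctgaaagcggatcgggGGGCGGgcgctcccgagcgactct
Sc4mol: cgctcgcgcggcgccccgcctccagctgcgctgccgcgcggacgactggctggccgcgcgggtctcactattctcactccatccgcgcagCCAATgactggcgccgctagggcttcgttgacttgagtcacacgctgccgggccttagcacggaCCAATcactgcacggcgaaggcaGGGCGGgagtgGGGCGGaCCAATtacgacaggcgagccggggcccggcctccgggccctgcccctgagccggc

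The sterol regulatory element letters occurred in Hmgcs1, starting at position -137 from the start, and in no other of the 26 promoters; 1.22% of 27025 genes held them. CCAAT was found in 20 of the 26 against 37.5% of genes, GGGCGG in 22 against 35.4%, and CACGTG in 5 against 6.86%. Cyp51 had 1 CCAAT and 1 GGGCGG, Hmgcs1 had 3 and 2, and Sc4mol had 3 and 2. A match describes letters in this window and is no evidence of a bound site.

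The 8 enzymes from acetyl-CoA to squalene were all higher in exposed lung, 2 of them called, with a median of 0.30. Idi1, which isomerises isopentenyl diphosphate, was highest at 0.42 ± 0.09 (SE; limma adjusted p = 0.084), with exposed lungs at 0.52 to 1.05 and controls at 0.20 to 0.62. Mvd, which decarboxylates mevalonate diphosphate, gave 0.29 ± 0.06 (SE; limma adjusted p = 0.092); its 6 exposed lungs, from -1.10 to -0.82, all lay above its 5 control lungs, from -1.37 to -1.12. Fdft1, squalene synthase, gave 0.39 (limma adjusted p = 0.27), with a second probe at 0.05. Acat2 at 0.07, Mvk at 0.08 and Pmvk at 0.08 had 95% intervals that reached below 0, at -0.11 to 0.26 for Pmvk. A second probe gave -0.06 for Pmvk and 0.19 for Mvk.

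All 10 enzymes from squalene to cholesterol were higher as well, 2 of them called and 8 at an unadjusted p under 0.05, with a median of 0.27. Sqle, squalene epoxidase, gave 0.40 ± 0.13 (SE; limma adjusted p = 0.49), with exposed lungs from -1.38 to -0.56 and controls from -1.74 to -1.08. Lss, which closes the ring to lanosterol, gave 0.33 (limma adjusted p = 0.33), and Sc5d, lathosterol oxidase, 0.26 (limma adjusted p = 0.15), with 0.22 from a second probe. Tm7sf2 and Dhcr7, both sterol reductases, stood at 0.27, while Nsdhl and Hsd17b7, of the C4-demethylation, stood at 0.25. Ebp, the sterol isomerase, was lowest of the group at 0.10. Over both groups of enzymes, 34 of 35 probes were higher in exposed lung.

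**Figure D2:**
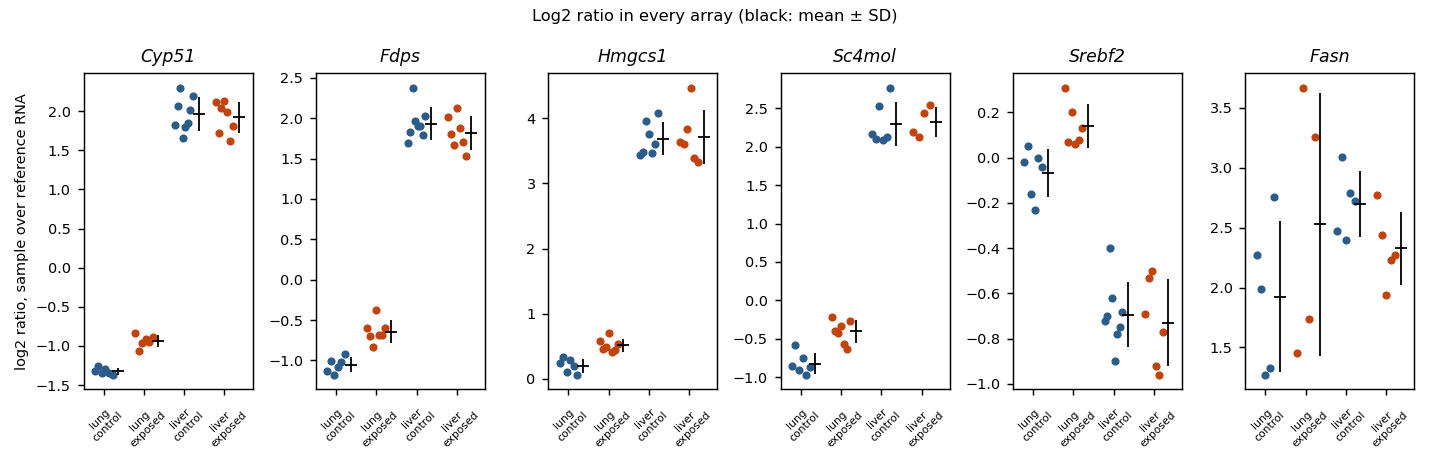
Log2 ratio of sample over reference (vertical axis, scaled separately for each gene) of Cyp51, Fdps, Hmgcs1, Sc4mol, Srebf2 and Fasn; each point is an array, in control or exposed lung or liver, and black marks are mean ± SD. The exposed Cyp51 lungs, -1.06 to -0.84, all lie above the control lungs, -1.37 to -1.25, while the liver groups overlap in every panel.

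Of the 6 regulators, 0 were called by limma, 1 (Srebf2) had an unadjusted p under 0.05, and the median was 0.06. Srebf2, the factor of the sterol genes, ranged from 0.06 to 0.31 in 6 exposed lungs and from -0.23 to 0.05 in 6 control lungs; the groups did not overlap, and the difference was 0.21 ± 0.06 (SE; limma adjusted p = 0.37). Its other probes gave 0.33 (limma adjusted p = 0.061), 0.14 and 0.04. Counting Srebf2, 5 of the 32 genes had exposed lungs wholly above the controls (Hmgcs1, Mvd, Fdps, Cyp51 and Srebf2), against 0.433% of all genes. Srebf1 gave 0.06, Insig1 0.20, Insig2 0.06, the sterol carrier Stard4 -0.02 and Scap -0.08. The other probes of Stard4 went upward, at 0.05 and 0.095, and the second probe of Insig1 gave 0.03.

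The 8 measured genes of fatty acid synthesis had a median of 0.27 in the lung, 6 of them higher, but 0 were called and their spread was wide. Fasn, the fatty acid synthase, ran from 1.45 to 3.67 in 4 exposed lungs and from 1.27 to 2.76 in 5 control lungs. Its difference of 0.60 had a 95% interval from -0.44 to 1.64. Elovl6, an elongase, ran from -1.60 to 1.70 and from -1.55 to 0.23, with a difference of 0.58 and an interval from -0.61 to 1.77. Both genes overlapped over most of their range.

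Fads1, the delta-5 desaturase, was the only fatty acid gene at an unadjusted p under 0.05, with -0.56 to -0.27 in 6 exposed and -0.81 to -0.45 in 6 control lungs, a difference of 0.24 ± 0.07 (SE; limma adjusted p = 0.44). Scd1, the stearoyl-CoA desaturase of liver and fat, gave 0.33 from 4 and 4 lungs, and Acaca, acetyl-CoA carboxylase, 0.29, while its other probes gave -0.06, 0.03 and 0.00. Scd2 stood at -0.16, Acly, which supplies cytosolic acetyl-CoA, at -0.04 and Fads2 at 0.02. The median SD of the 8 genes among exposed lungs was 0.31, against 0.15 for the mevalonate enzymes and 0.09 for all genes. All genes here include those with dim probes, so that last value comes from a set unlike in signal.

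Within the slides that held both groups, the sterol calls kept their direction where measured, and the median of the fatty acid group did not. Slides 1 and 3 held 2 exposed and 2 control lungs each, and slide 2 held 1 and 2. On slides 1, 2 and 3 the median of the mevalonate enzymes was 0.24, 0.21 and 0.36 and that of the later sterol enzymes 0.29, 0.16 and 0.38. For the fatty acid genes it was 0.05, -0.07 and 0.34. Fdps differed by 0.42, 0.29 and 0.43, Sc4mol by 0.41, 0.41 and 0.48, and Hmgcs1 by 0.24, 0.30 and 0.42; Cyp51 differed by 0.33 and 0.42 on slides 1 and 3 and had no exposed value on slide 2. Slide 4 held exposed lungs only. With slide as a fixed block Cyp51, Fdps and Sc4mol were called and Hmgcs1 was not (limma adjusted p = 0.084).

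**Figure D3:**
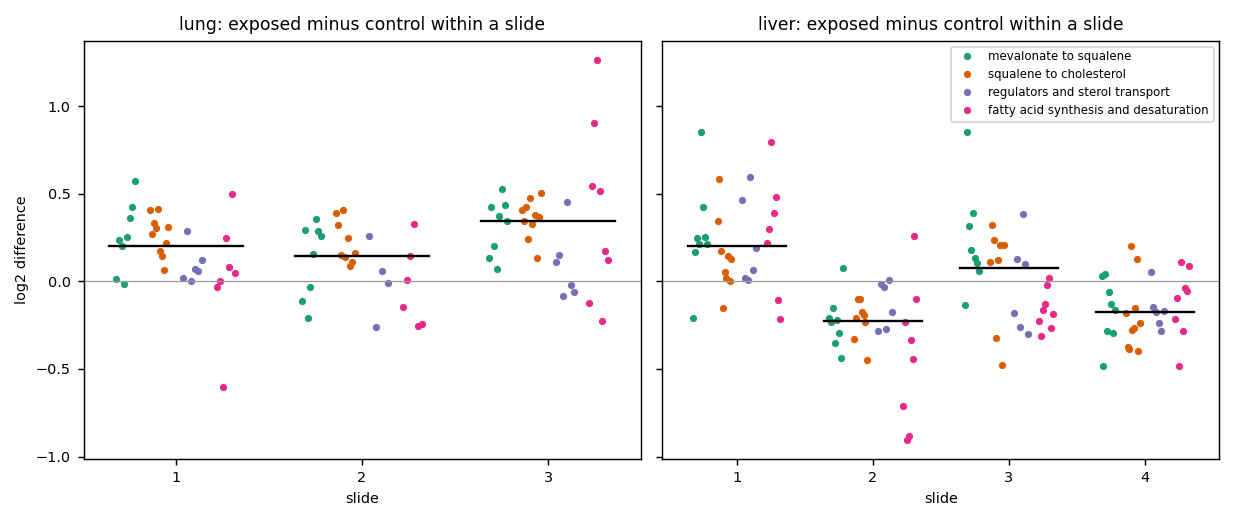
Exposed minus control difference (log2, vertical axis) within each slide (horizontal axis) in lung and liver; each point is a gene, coloured by role, and black lines are the medians of the genes measured. The lung medians are 0.20, 0.15 and 0.34, all above 0, and the liver medians run from 0.20 to -0.23.

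Markers of other tissues also varied between these lung pieces. The mean of 8 fat cell markers, as a deviation from the control mean, ran from -0.74 to 1.76 in exposed lungs and from -1.14 to 1.14 in controls, with a median marker difference of 0.49 and 0 called, all 8 being higher in the exposed group. The mean of 8 hepatocyte markers ran from -0.08 to 1.76 and from -0.32 to 0.29, all 8 were higher in the exposed group with a median difference of 0.65, 0 were called and 4 had an unadjusted p under 0.05 by limma; 5 were well above background on every exposed lung, and 2 on no control lung. Heart muscle markers ran from -0.19 to 1.22 and from -1.52 to 0.98, with all 8 higher, a median difference of 0.47 and 0 called or at an unadjusted p under 0.05 by limma. The means of alveolar type 2 cell markers stayed within -0.09 to 0.12 and -0.07 to 0.11, and those of macrophage markers within -0.05 to 0.16 and -0.18 to 0.23. Single macrophage markers moved more. By limma 1 of the 11 was called higher and 1 lower in exposed lung, with differences from -0.48 to 0.57. The means of 10 neutrophil markers ran from -0.59 to 0.25 in exposed lungs and from -0.28 to 0.57 in controls. Of these markers 8 were lower in exposed lung, and 0 were called. Bile duct and Kupffer cell lists each had 4 of 5 markers higher, with 1 called higher. Of 6 club cell markers 5 were lower, and 0 were called.

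The fatty acid gene means were highest in exposed mice 13 and 23, at 0.90 and 0.68, which were also the mice with the highest fat cell marker means, 1.76 and 1.72; among controls mouse 34 was highest on both, at 0.31 and 1.14. Exposed mouse 19 had a fat cell marker mean of 1.51 and a fatty acid gene mean of 0.17. Exposed mice 12 and 20 had fat cell marker means of -0.07 and -0.74 and hepatocyte marker means of -0.08 and 0.00, and their mevalonate enzyme means were 0.10 and 0.16, the lowest of the exposed group, where the other 5 ran from 0.21 to 0.45, and above the highest control at 0.07. All 7 exposed lungs lay above that control. Exposed mouse 1 had a fat cell marker mean of -0.41, below that of mouse 12, a hepatocyte marker mean of 1.76 and a mevalonate enzyme mean of 0.31. Over all 32 genes mice 12 and 20 both stood at 0.03, below the highest control at 0.09. For the later sterol enzymes exposed lungs ran from 0.15 to 0.43 and controls from -0.05 to 0.18, with control mouse 26 at 0.18 above exposed mouse 20 at 0.15; mouse 12, at 0.20, was next to lowest of the exposed group.

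With the fat cell mean as a covariate Cyp51 and Fdps were called, while Hmgcs1 at 0.31 (limma adjusted p = 0.055) and Sc4mol at 0.41 (limma adjusted p = 0.057) were not. With the hepatocyte mean Cyp51 alone was called (0.34; limma adjusted p = 0.025), and the median of the 32 genes was 0.15. Fdps then stood at 0.33, Hmgcs1 at 0.28 and Sc4mol at 0.35, with adjusted p of 0.15, 0.35 and 0.38. The part of these markers in the result was not tested beyond this, and in pieces of whole tissue fewer cells of a type and less RNA per cell cannot be told apart. The covariates were added after the values had been seen.

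**Figure D4:**
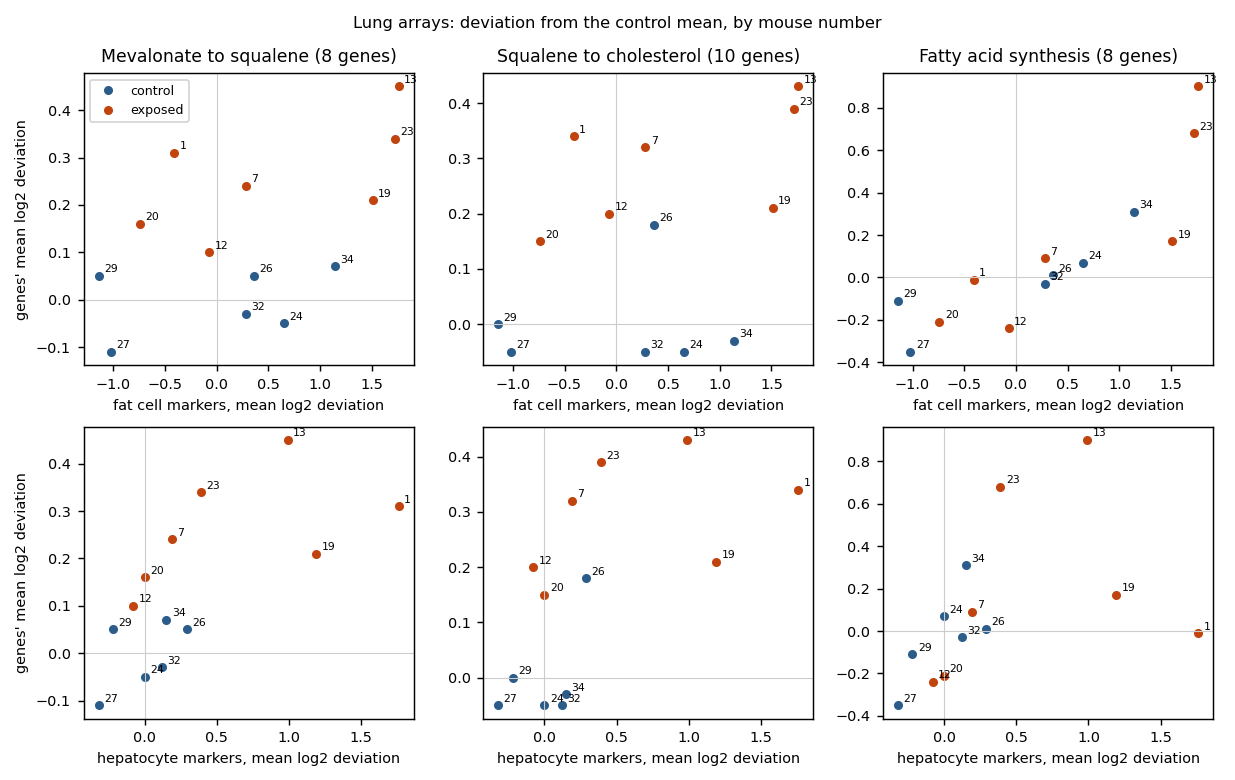
Mean log2 deviation from the control mean in each lung, numbered by mouse: 3 role groups (vertical axes) against fat cell markers (upper row) and hepatocyte markers (lower row). Exposed mice 12 and 20 lie at -0.07 and -0.74 on fat cell markers and, on the mevalonate enzymes, lowest of the exposed mice (0.10 and 0.16) and above the controls. Exposed mouse 1 lies at -0.41 on fat cell markers and at 0.31 on the mevalonate enzymes.

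The reference channel gave no such difference. Tested on its own between the arrays of exposed and control lungs, Cy3 differed in 0 of the 32 genes by limma's adjusted p and in 2 at an unadjusted p under 0.05, with a median of -0.001, and Cyp51 stood at -0.05 and Fdps at 0.01 (quantile scaling).

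Of 23 other genes of sterol metabolism that had a probe, 9 were higher and 14 lower in exposed lung, with a median of -0.02. By limma 1 was called higher, where 0.247% of all genes were. At an unadjusted p under 0.05, 4 were higher and 0 lower, against 4.14% and 3.28% of all genes. In their liver comparison 0 were called, and 2 were lower at an unadjusted p under 0.05, against 1.78% of all genes. Of 28 other genes of fatty acid and lipid handling 0 were called in the lung by limma, with a median of 0.07. At an unadjusted p under 0.05, 2 were higher and 2 lower, against the same 4.14% and 3.28% of all genes. Singled out after their values were seen, these genes were Acsl3 and Fabp5 upward and Elovl7 and Pnpla5 downward. In the liver 0 of the 28 were called by limma, and 2 were lower at an unadjusted p under 0.05, against 1.78% of all genes.

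In the liver none of the 32 genes passed the same test: 0 were called in either direction, as were 0 of all 41143 probes by limma (0% of genes lower). At an unadjusted p under 0.05, 4 genes were lower and 0 higher, against 1.78% of all genes lower. The 4 were Acat2 at -0.13, Sc5d at -0.34, Acaca at -0.16 and Fasn at -0.36. The Sc5d value rests on 4 exposed and 3 control livers, and a second probe gave 0.09. The other probes of Acaca gave 0.02, -0.04 and 0.03, and the second probe of Fasn gave -0.16. By direction 22 of 32 were lower, against 53.9% of all genes, with a median of -0.05. Liver cell markers were lower as well: 7 of 7 hepatocyte markers tested (median -0.23), 5 of 5 Kupffer cell markers (median -0.24) and 11 of 11 macrophage markers (median -0.16). By limma 0 of these were called, and 3, 2 and 1 had an unadjusted p under 0.05; their part in the result was not tested.

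Acat2 stood at 3.09, 3.16 and 3.17 (lowest, median, highest) in 6 exposed livers and at 3.13, 3.29 and 3.42 in 8 control livers. Sc5d stood at 5.00, 5.15 and 5.31 in exposed livers and at 5.31, 5.46 and 5.71 in control livers, and Acaca at 0.77, 0.96 and 1.03 in 6 exposed and 0.88, 1.1 and 1.33 in 8 control livers. These groups touched or overlapped. Scap had the lowest p of the regulators, with a difference of -0.12, and stood at 1.5, 1.71 and 1.78 in 6 exposed and 1.67, 1.79 and 2.02 in 8 control livers. Fasn ran from 1.94 to 2.77 in 5 exposed livers, median 2.27, and from 2.40 to 3.09 in 5 control livers, median 2.72, again with overlap. By role the liver medians were 0.02 for the mevalonate enzymes, -0.04 for the later sterol enzymes, -0.04 for the regulators and -0.12 for the fatty acid genes, of which 7 of 8 were lower. The genes called in the lung gave -0.05 for Cyp51, -0.12 for Fdps, 0.02 for Hmgcs1 and 0.03 for Sc4mol, with 95% intervals of -0.26 to 0.17, -0.33 to 0.09, -0.33 to 0.38 and -0.28 to 0.34. The lung intervals were 0.30 to 0.48 for Cyp51, 0.28 to 0.55 for Fdps, 0.195 to 0.433 for Hmgcs1 and 0.26 to 0.58 for Sc4mol. Those of Hmgcs1 and Sc4mol overlap the liver intervals, and those of Cyp51 and Fdps do not. The direct test between tissues, given below, called 0 of these genes.

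Livers of 1 group spread more widely over these genes than over all genes, with a median SD of 0.23 in exposed and 0.24 in control livers against 0.12 for all genes in both. The value for all genes includes probes not well above background, which the brightest probes of these genes never were, so the sets differ in signal. The direction also turned between liver slides, where the median of the 32 was 0.20, -0.23, 0.08 and -0.17 on slides 1 to 4. In exposed mouse 13 Hmgcs1 reached 4.47, against 3.33 to 3.83 in the other exposed livers, and Lss 1.63.

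The difference between the lung and the liver effect was then tested directly, as an interaction over all 28 arrays. Of 32 genes 30 had a larger effect in the lung (52.9% of all genes), with a median of 0.27, but 0 were called, where 0.165% of all genes were; 12 had an unadjusted p under 0.05 upward, against 3.14% of all genes. Sc5d came nearest, at 0.60 ± 0.12 (SE; limma adjusted p = 0.057), on 4 and 3 liver values, and its second probe gave 0.13. Next were Fdps at 0.53 ± 0.13 (limma adjusted p = 0.12) and Cyp51 at 0.43 ± 0.12 (limma adjusted p = 0.41). By role the medians were 0.24 for the mevalonate enzymes, 0.37 for the later sterol enzymes, 0.10 for the regulators and 0.35 for the fatty acid genes.

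With the mouse number as a random replicate block, which takes up the 12 numbers shared by both tissues, Sc5d was called (0.60, limma adjusted p = 0.045). With the mouse number as a fixed block 0 genes were called. Sc5d was also called without exposed lung 12 (adjusted p 0.025) or 20 (0.045), exposed liver 1 (0.039) or control liver 26 (0.027), and Fdps without exposed liver 13 (0.036). The Sc5d difference was smaller and not called with marked spots kept (0.45, adjusted p 0.51), the authors' table (0.39, adjusted p 0.82), all spots in the background model (0.24, adjusted p 0.66) or 1 value per gene symbol (0.04, adjusted p 1).

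Between control tissues most of these genes stood higher in liver. Of 32 genes 29 were called lower in lung than in liver (29.9% of all genes), each without overlap of the groups (19.8%), and 2 were called higher (31.2%), also without overlap (23.6%). The median difference was -2.67. By role it was -2.94 for the mevalonate enzymes, -3.16 for the later sterol enzymes, -1.93 for the regulators and -1.30 for the fatty acid genes. Lung and liver arrays were on different slides and read with different versions of the scanner software, so that tissue, slide and version cannot be told apart. The order of p-values picks the genes given next, each by its lowest, median and highest value.

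By their brightest probes, Tm7sf2 and Sc5d were furthest apart among the genes higher in liver. Tm7sf2 was 32.1 times higher in liver (5.07, 5.26 and 5.49) than in lung (-0.03, 0.28 and 0.43). Sc5d was 28.6 times higher (5.31, 5.46 and 5.71 in 3 livers against 0.54, 0.65 and 0.79). The second probe of Sc5d, measured in 8 control livers, gave only 7.83 times. Dhcr7, the last reductase, stood at 2.81, 2.96 and 3.25 in liver and -0.47, -0.24 and 0.10 in lung, and Ebp at 3.87, 4.00 and 4.17 in 3 livers and 0.65, 0.66 and 0.95 in lung. In each of these the lowest liver lay well above the highest lung.

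Among the other enzymes from squalene to cholesterol, Cyp51 was 9.76 times higher in liver, at 1.66, 1.94 and 2.30 against -1.37, -1.33 and -1.25. Sc4mol stood at 2.09, 2.15 and 2.77 in 6 livers against -0.97, -0.86 and -0.58, and Nsdhl at 1.76, 2.00 and 2.26 against -0.69, -0.53 and -0.36. Hsd17b7 stood at 2.46, 2.79 and 3.21 in 7 livers against -0.33, -0.14 and 0.62, and Sqle at 0.68, 0.99 and 1.42 against -1.74, -1.44 and -1.08. The lung rises of Cyp51 and Sc4mol after exposure, at 1.31-fold and 1.34-fold, are small beside these tissue differences.

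Among the mevalonate enzymes Acat2, the cytosolic thiolase, led by p, at 3.13, 3.29 and 3.42 in liver against -1.09, -0.90 and -0.80 in lung, or 18.2 times. Hmgcs1 was 11.2 times higher (3.44, 3.61 and 4.08 in 7 livers), with 3.42 and 4.37 times from its other probes. Idi1 was 8.47 times higher (3.07, 3.31 and 4.08 against 0.20, 0.26 and 0.62) and Fdps 7.95 times (1.69, 1.90 and 2.38). Fdft1 stood at 1.77, 2.07 and 2.27 against -1.06, -0.88 and -0.56. Mvk, mevalonate kinase, was nearer, at 0.83, 1.19 and 1.29 against -0.68, -0.56 and -0.35, or 3.15 times.

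Of the regulators Insig1 stood at 2.70, 2.93 and 3.65 in liver against -0.45, -0.36 and -0.20 in lung, and Scap at 1.67, 1.79 and 2.02 against -0.30, -0.11 and 0.09. Both were lower in every lung than in any liver. Srebf2 was called higher in lung by 0.63, but its other probes gave -0.49, which was called lower, -0.07 and 0.03, and with median centering its brightest probe gave 0.01; its direction depends on the probe.

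Fads2, the delta-6 desaturase, was 17.1 times higher in liver (3.18, 3.46 and 3.89 against -0.79, -0.61 and -0.32 in 5 lungs), and Fads1 7.61 times (2.11, 2.22 and 2.44 in 7 livers against -0.81, -0.68 and -0.45). Scd2 ran the other way. This stearoyl-CoA desaturase, known from brain and other tissues outside the liver, stood at 0.07, 0.21 and 0.64 in lung and -5.56, -5.33 and -4.68 in liver, 45.4 times higher in lung. Fasn did not pass, at -0.77 (limma adjusted p = 0.071), although its second probe did at -1.34.

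**Figure D5:**
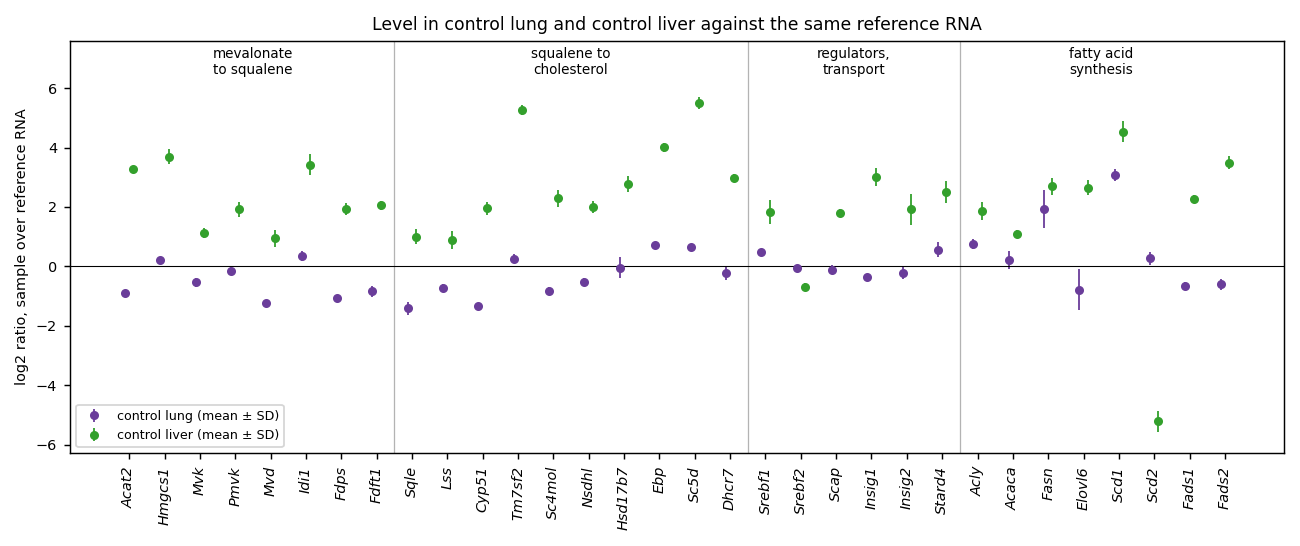
Log2 ratio of sample over reference (vertical axis) of the 32 genes in control lung and control liver, by role; points are means and bars ± SD over mice. Liver lies above lung in 30 genes, Fasn included, and Scd2 and Srebf2 lie the other way.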

How the data were processed

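The 28 mRNA arrays (mouse 4x44K, 2 colours, 45018 spots) were analysed; 13 miRNA arrays were not used here. The spot intensity values were deposited as scanner output of Feature Extraction (9.5.3.1 lung, 10.1.1.1 liver). The deposited log2 table holds the authors' LOWESS-normalized ratios and served only as an alternative. Per the study's methods, outlier arrays had been removed after cluster analysis, and the authors tested with MAANOVA.

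From the intensities, normexp (offset 50, marked spots out of the background model) and loess within arrays were run in R 4.3.3 with limma 3.58.1; control and marked spots were dropped and spots of a probe averaged, giving 41174 probes. Each tissue, the interaction and the control tissues were tested with limma's lmFit and eBayes (two-sided, adjusted p 0.05), checked on simulated data. A gene's brightest probe over all arrays stands for it. Every member is named; the lowest, median and highest values are given for called genes (at most 20, lowest p first) and, in a role group with none called, for the gene of lowest unadjusted p; others with such values, and uncalled genes of the wider lipid list, were picked after their values were seen. Of a wider list of sterol genes, single genes are not reported here. The members and lists were chosen with earlier results of these data known. The number of arrays limits the precision.

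Same-numbered lung and liver samples were taken as the same mouse, since the paper states that both tissues came from the same animals. Some of these numbers carry the other group in the titles of the miRNA arrays. Deviations of the 12 pairs correlated at -0.075 to 0.215 (median 0.071), and the same-numbered liver was the best match for 4 of the 12 lungs. The main fits had no mouse block. Alternatives changed background, normalization, spot filter, gene summary, slide or mouse block, marker covariates (added after seeing the data) and each array in turn. Promoters are from RefSeq. Figures used matplotlib 3.10.9.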

Additional observations from a re-analysis of the deposited data

Results flagged for a closer look

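Of 125 groups of 4 to 10 mice tested for 1 value far from the rest, 9 had such a value, and chance alone gives about 1 in 20 groups. The number given with each is the gap to the nearest mouse as a share of the group's range. In exposed lung, mouse 12 was lowest for Acat2 (-1.14, nearest -0.82, share 0.749) and for Insig2 (-0.41, nearest -0.15, share 0.738). In control lung the mice were 26 for Hsd17b7 (0.62, share 0.665), 27 for Ebp (0.95, share 0.802) and 34 for Acly (1.03, share 0.916). In exposed liver they were 13 for Lss (1.63, share 0.627) and 20 for Srebf1 (2.28, share 0.687), and in control liver 27 for Pmvk (2.49, share 0.593) and 29 for Insig1 (3.65, share 0.584). None of these genes was called in the lung or the liver comparison of exposed and control mice.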

How the results depend on the processing

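Of 4 lung calls upward, 0 held with all spots in the background model or with median centering, 1 with the scanner software's processed signals, 2 with the authors' table or 1 value per gene symbol, 2 with fat cell, heart muscle or macrophage markers as a covariate, and 1 with hepatocyte markers or the fat cell, hepatocyte and heart muscle markers together; the cause was not tested. Hmgcs1 and Sc4mol, lost with heart muscle (0.30 and 0.41) or macrophage markers (0.33 and 0.43), stayed near 0.31 and 0.42. The lung median became 0.35 with median centering, 0.15 with hepatocyte markers and 0.15 with the 3 lists together. In liver the median turned to 0.11 with all spots and 0.13 with median centering. The interaction median was 0.12 with all spots, and 1 gene was called with the random replicate block; the replicate blocks changed no other call by over 1.5 times. Between control tissues the median was -2.49 with all spots, -3.04 with scanner signals, -2.88 with median centering, -2.34 with 1 value per gene symbol and -2.44 as the median over all probes; 1 gene was called higher with median centering and with 1 value per gene symbol.

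With each array left out in turn, lung calls numbered 2 to 5 with a median of 0.22 to 0.28. They fell to 2 without exposed mouse 1, 13 or 23 or control mouse 24, 27, 32 or 34, and reached 5 without control mouse 26. Liver calls stayed at 0 (median -0.093 to -0.006), the interaction gave 0 to 1 call (median 0.23 to 0.35), and between tissues 29 to 30 genes were lower and 2 higher (median -2.72 to -2.62). No called difference changed sign under any of these settings.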
